A study of Mus musculus with 12 samples.

Results

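Polyamine genes were followed in cultured mouse bone marrow progenitors that carried either a Myc retrovirus or a control virus. The members were 10 named genes: Odc1, Srm, Sms, Azin1, Amd1, Oaz1, Oaz2, Sat1, Smox and Paox. Every probe set whose annotation held 1 of these symbols, alone or among others, was taken. This gave 11 of the 35556 probe sets on the array and covered 8 of the 10 genes. Amd1 and Paox were not listed in the gene table and are not analysed here.

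Each of the 12 arrays held RNA from progenitors of tamoxifen-treated CreER mice, in which tamoxifen activates a Cre recombinase. The 4 groups of 3 arrays were Myc virus in cells labelled Zfx ko (genotype Zfx fl/y CreER), Myc virus in Zfx wt cells (Zfx wt/y CreER), GFP virus in cells labelled Zfx ko, and GFP virus in Zfx wt cells. Zfx is an X-linked zinc finger transcription factor, and Myc is a transcription factor that drives growth. All 4 groups shared c-Kit+ bone marrow as source, 5 mg tamoxifen by gavage daily for 3 days, infection with a virus that marks cells with GFP, 48 hours of culture, a sort for GFP+ cells and 4 more days in RPMI 1640 with 20% FBS, SCF, IL-6 and IL-3 (each cytokine at 10 ng/mL). The virus was taken from the sample titles. The labels used here give neither the promoter that drives CreER, nor the age of the mice, nor whether arrays of a group came from separate animals, so p-values measure the spread between arrays, which may be technical.

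Polyamines are small positively charged amines that bind nucleic acids and that growing cells need for protein synthesis. Ornithine decarboxylase (Odc1) makes putrescine, spermidine synthase (Srm) turns it into spermidine, and spermine synthase (Sms) turns spermidine into spermine. The aminopropyl groups for both synthases come from decarboxylated S-adenosylmethionine, which Amd1 makes. Antizymes (Oaz1, Oaz2) bind ornithine decarboxylase, direct it to the proteasome and lower polyamine uptake, and antizyme inhibitor 1 (Azin1) frees the enzyme from them. On the breakdown side, Sat1 acetylates spermidine and spermine, Paox oxidises the acetylated forms, and Smox oxidises spermine back to spermidine. Odc1 is a long-known direct target of Myc, which with its partner Max binds the E box CACGTG and, less tightly, variants such as CACGCG.

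The stretches before the starts of Odc1, Sms and Sat1 are shown because Odc1 and Sms were higher and Sat1 lower with the Myc virus (in the blocked fit described below), and Myc binds the E box. Windows came from RefSeq annotation of GRCm38.p6 and run from 250 bases before to 50 bases after a start. Of the 10 members 8 had at least 1 window (10 windows in all), and Srm and Azin1 had none. Capitals mark CACGTG, or CACGCG read on either strand (CACGCG or CGCGTG). No sites overlapped. The Odc1 window lies on the plus strand at chr12:17544623-17544922, the 2 Sms windows on the minus strand at chrX:157492238-157492537 and chrX:157491319-157491618, and the Sat1 window on the minus strand at chrX:155216400-155216699.
Odc1: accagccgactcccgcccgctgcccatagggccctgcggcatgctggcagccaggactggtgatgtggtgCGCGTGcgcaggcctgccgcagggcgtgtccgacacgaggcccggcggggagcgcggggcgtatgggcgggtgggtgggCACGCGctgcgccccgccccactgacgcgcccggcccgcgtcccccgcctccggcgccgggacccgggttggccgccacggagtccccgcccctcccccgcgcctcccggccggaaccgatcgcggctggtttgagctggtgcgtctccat
Sms, first window: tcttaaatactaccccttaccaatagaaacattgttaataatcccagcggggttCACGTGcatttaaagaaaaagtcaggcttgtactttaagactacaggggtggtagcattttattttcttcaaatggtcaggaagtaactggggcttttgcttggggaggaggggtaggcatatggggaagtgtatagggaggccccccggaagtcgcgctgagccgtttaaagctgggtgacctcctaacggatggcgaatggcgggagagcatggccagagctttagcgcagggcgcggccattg
Sms, second window: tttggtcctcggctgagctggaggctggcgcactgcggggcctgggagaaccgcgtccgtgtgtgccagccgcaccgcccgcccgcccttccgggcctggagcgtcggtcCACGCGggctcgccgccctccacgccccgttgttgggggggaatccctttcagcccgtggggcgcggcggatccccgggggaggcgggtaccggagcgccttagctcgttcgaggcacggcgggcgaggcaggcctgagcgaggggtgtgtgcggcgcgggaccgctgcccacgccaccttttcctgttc
Sat1: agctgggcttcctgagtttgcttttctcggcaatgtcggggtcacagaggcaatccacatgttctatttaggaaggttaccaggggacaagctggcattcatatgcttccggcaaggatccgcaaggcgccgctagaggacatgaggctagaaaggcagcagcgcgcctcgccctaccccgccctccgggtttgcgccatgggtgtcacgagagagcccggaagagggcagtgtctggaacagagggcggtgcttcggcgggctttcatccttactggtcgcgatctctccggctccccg
The Odc1 window held the CACGCG form at 180 and at 101 bases before the start and no CACGTG. The first Sms window held CACGTG at 196 bases before its start, and the second held CACGCG at 140 bases before. The Sat1 window held neither. Among the other members, Oaz1 had the CACGCG form at 212 bases before its start, and the windows of Amd1, Oaz2, Smox and Paox held neither. For comparison, CACGTG occurred in 7.15% and the CACGCG form in 9.27% of all 32851 windows of this length. Only these windows were searched, so sites elsewhere in a gene, introns included, are not covered. Binding to these letters was not measured.

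Checks on the arrays bear on every result below. The Zfx probe set was not lower in the cells labelled Zfx ko (fold over wt 1.06 with Myc, adjusted p = 0.914, and 1.08 with GFP, adjusted p = 0.772, limma), and which part of the transcript it covers is not stated in the sources used here; the genotype therefore rests on the labels. The Myc probe set was higher with the Myc virus, 1.87-fold in cells labelled Zfx ko (adjusted p = 9.83e-04) and 1.74-fold in Zfx wt cells (adjusted p = 0.00209). Progenitor markers (Kit, Cd34, Ptprc, Spi1, Cebpa, Mpo, Elane) lay between the 79.4th and 99.6th percentile of probe set means, and lymphoid markers between the 10.4th and 46.5th. Markers of other cell types were present and moved with the virus, and some moved with the genotype label. Summed intensities of 9 neutrophil markers were 40514 to 46923 in Myc arrays labelled Zfx ko, 32252 to 45983 in Myc Zfx wt arrays, 64166 to 76629 in GFP arrays labelled Zfx ko and 65492 to 76415 in GFP Zfx wt arrays. Of 9 mast cell and basophil markers, 0 were called higher and 4 lower with Myc in cells labelled Zfx ko (0 and 7 with the replicate block), and 1 higher and 5 lower in Zfx wt cells. Of 6 monocyte and macrophage markers 1 was called lower with Myc in each genotype (3 in cells labelled Zfx ko and 2 in Zfx wt cells with the block), and of 5 lymphoid markers 0 in either. Of 7 progenitor markers 3 were called lower with Myc in cells labelled Zfx ko (5 with the block) and 1 in Zfx wt cells (2 with the block). Of 6 erythroid markers 3 were called higher with Myc in cells labelled Zfx ko (5 with the block, median log2 difference 1.39) and 0 in Zfx wt cells, with or without it (median 0.42). Between genotypes, 2 of 9 mast cell and basophil markers were called lower in cells labelled Zfx ko with Myc (3 with the block). With GFP it was 0 (2 with the block). Erythroid markers between genotypes are given below with Smox. Of the progenitor, neutrophil, monocyte and lymphoid markers 0 were called between genotypes without the block. With the block, 2 of 7 progenitor markers were called lower in cells labelled Zfx ko with Myc, and 1 with GFP. Also with the block, 1 of 6 monocyte and macrophage markers was called higher there with Myc, and 1 of 9 neutrophil markers with GFP. The part of these cell types in the differences below was not tested. Fewer cells of a type and less RNA per cell cannot be told apart in such bulk samples. Deviations from the group means were shared between arrays of the same replicate number, so results that a second, blocked fit on that number changed are shown with both.

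Values are RMA intensities on a linear scale, differences are on log2, and a probe set is called when its adjusted p over all 35556 probe sets is under 0.05 in limma. The level of 1 probe set is not set against that of another. All member values (272 or more) lay above the highest array median of 137.2. Where a gene had 2 probe sets, they agreed on every array within 1.12-fold for Odc1, 1.06-fold for Sms and 1.11-fold for Oaz1.

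**Figure D1:**
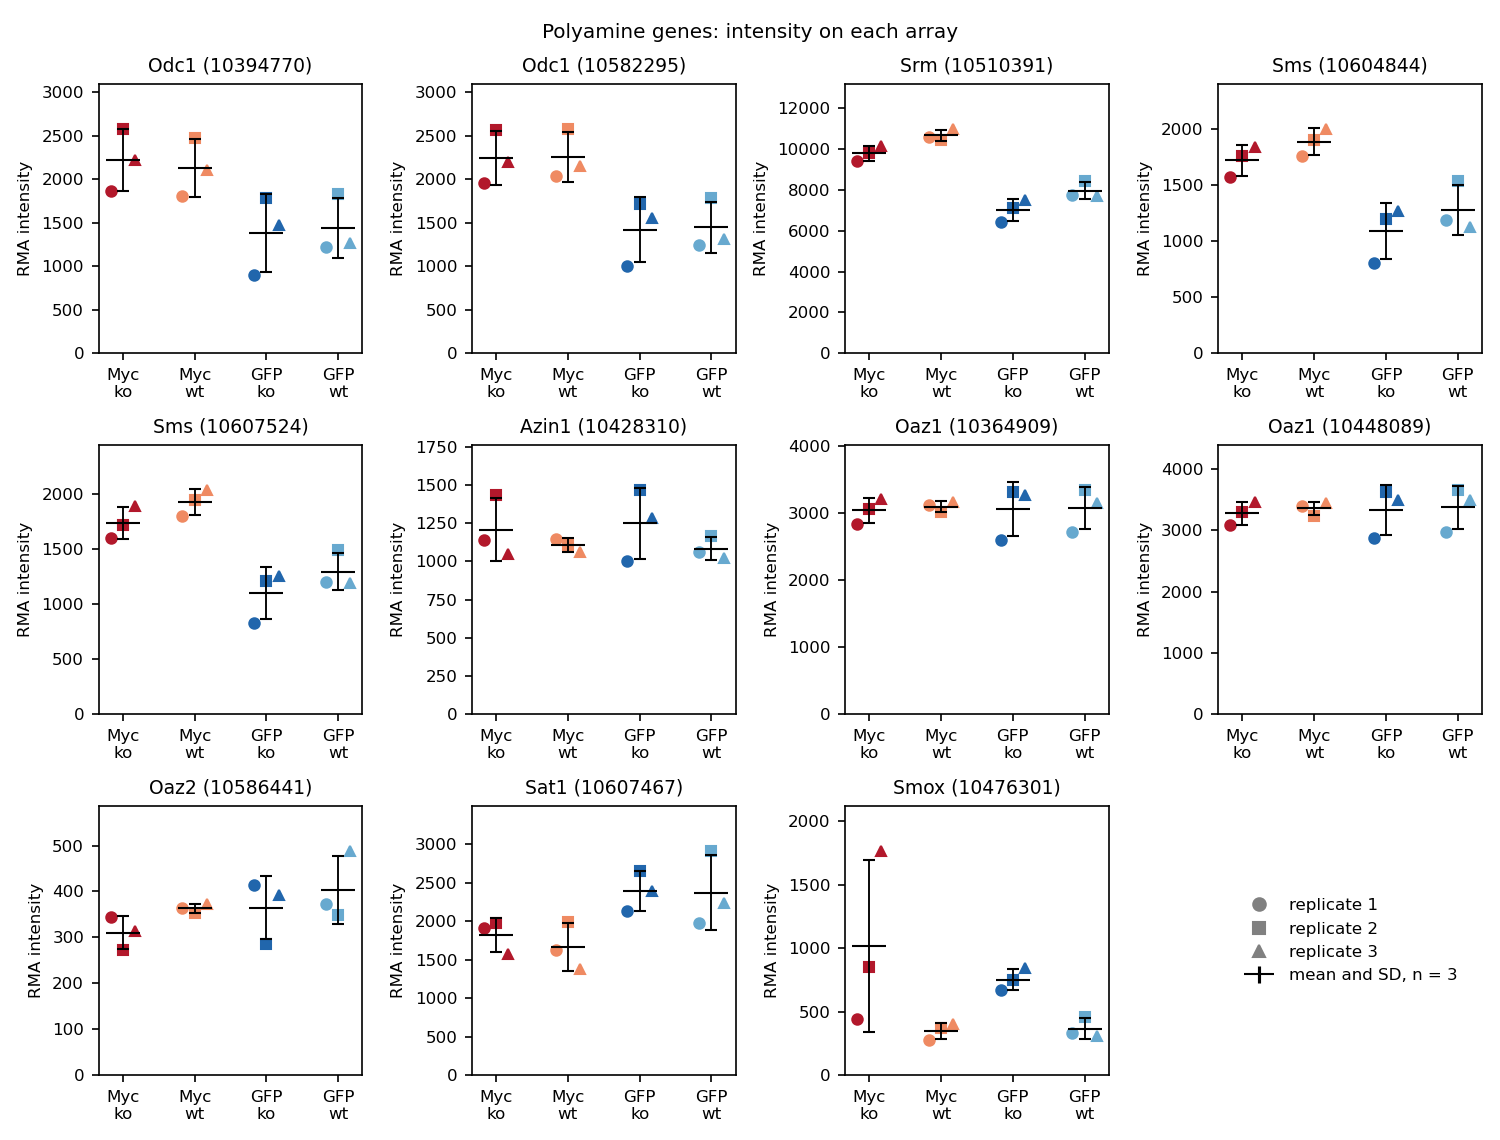
RMA intensity (linear axis from 0) of each of the 11 member probe sets on the 12 arrays, by group; circles, squares and triangles are replicates 1, 2 and 3, and bars are the mean with SD (n = 3). Srm and Sms sit higher in the Myc groups than in the GFP groups, Sat1 sits lower on average, Oaz1 and Azin1 stay level, and Smox is high in both groups labelled Zfx ko.

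With the Myc virus, Srm rose in both genotypes and Sms in cells labelled Zfx ko in the fit without the block. In the blocked fit, Odc1 and Sms were also called higher and Sat1 lower in both genotypes. No antizyme gene was called in either fit. In cells labelled Zfx ko, 3 of the 11 member probe sets were called higher and 0 lower, that is Srm and both probe sets of Sms. Over all probe sets 4.78% were called higher and 2.47% lower. In Zfx wt cells 1 of 11 was called higher, that of Srm, and 0 lower, against 3.38% higher and 1.58% lower over all probe sets. With the replicate number as a block, 5 of 11 were called higher and 1 lower in each genotype, which added both Odc1 probe sets and, as the lower one, Sat1, and in Zfx wt cells both Sms probe sets. The background with the block was 9.37% higher and 6.61% lower in cells labelled Zfx ko, and 7.61% higher and 4.82% lower in Zfx wt cells. These shares include dim probe sets, whereas the members lay between the 66.4th and 98.6th percentile of probe set means. Fitted alone without the block, probe sets with a mean above the median gave 3127 calls in cells labelled Zfx ko (4 of 11 members). In Zfx wt cells they gave 2165 (2 of 11 members). These counts take both directions together. All 35556 probe sets gave 2577 such calls in cells labelled Zfx ko and 1765 in Zfx wt cells. The brighter probe sets, fewer in number, gave more calls, so their share called was higher than that over all probe sets. The member counts of this fit stand beside that higher share. Myc and GFP arrays did not overlap for 6 of 11 member probe sets in cells labelled Zfx ko, where 21% of all probe sets did not overlap, and for 4 of 11 in Zfx wt cells, where 20.5% did not. The median log2 difference of the members was 0.22 in cells labelled Zfx ko and 0.03 in Zfx wt cells, beside 0.0042 and 7.2e-04 over all probe sets. The first is the value of Smox and the second that of Azin1, neither called. The 2 medians therefore do not compare the Myc difference between genotypes, for which the interaction is given below.

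Srm, which makes spermidine, was the member with the steadiest difference. Its intensity was 9417, 9826 and 10142 in Myc arrays labelled Zfx ko, against 6443, 7127 and 7498 in GFP arrays labelled Zfx ko. Zfx wt arrays gave 10592, 10458 and 10981 with Myc and 7761, 8443 and 7704 with GFP. Every Myc array lay above every GFP array, and no group spanned more than 1.16-fold. The fold was 1.40 (95% interval 1.26 to 1.55, adjusted p = 0.00374) in cells labelled Zfx ko and 1.34 (1.21 to 1.49, adjusted p = 0.00929) in Zfx wt cells. Both calls were kept whichever of the 12 arrays was left out, with adjusted p up to 0.0206 and 0.0494, but with only the 2 groups compared the call in cells labelled Zfx ko was lost (adjusted p = 0.0535).

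Sms, which makes spermine, has 2 probe sets, both of which also list the pseudogene Gm8234, so signal from that copy cannot be told apart. For probe set 10604844 the intensity was 1572, 1756 and 1840.3 in Myc arrays labelled Zfx ko, against 802, 1198 and 1273 in GFP arrays labelled Zfx ko. The Zfx wt arrays were at 1763, 1903 and 1999 with Myc and 1186, 1536 and 1122 with GFP. The groups did not overlap in either genotype, and replicate 1 of the GFP arrays labelled Zfx ko was the lowest of the 12.

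The second Sms probe set, 10607524, gave 1603, 1723 and 1888 in Myc arrays labelled Zfx ko, against 829, 1207 and 1258 in GFP arrays labelled Zfx ko. Among Zfx wt arrays it gave 1798, 1947 and 2035 with Myc and 1199, 1489 and 1193 with GFP. It ranked the groups as the first one did. In cells labelled Zfx ko both folds were 1.61 (1.23 to 2.10, adjusted p = 0.0422, and 1.27 to 2.04, adjusted p = 0.0259). Zfx wt cells had folds of 1.49 (1.14 to 1.94, adjusted p = 0.104) and 1.50 (1.18 to 1.90, adjusted p = 0.0636), not called, and with the block both passed (adjusted p = 0.0277 and 0.0139). The call of 10604844 in cells labelled Zfx ko was lost in 10 of the 12 fits that left out 1 array (adjusted p up to 0.152), and that of 10607524 in 2 of 12, those without replicate 2 (0.0638) or replicate 3 (0.106) of the Myc arrays labelled Zfx ko; with the block both were called in all 12. With only the 2 groups compared both calls were lost (adjusted p = 0.137 and 0.118), and with arrays centred on their medians that of 10604844 was (0.0636).

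Odc1, the enzyme at the head of the pathway, was higher with Myc in each of the same-numbered pairs, but its arrays spread widely within groups. Probe set 10582295 read 1954, 2566 and 2198 in Myc arrays labelled Zfx ko, against 1001, 1711 and 1548 in GFP arrays labelled Zfx ko. The Zfx wt arrays read 2033, 2573 and 2148 with Myc and 1244, 1783 and 1309 with GFP. Replicate 1 was the lowest and replicate 2 the highest in all 4 groups, and no GFP array reached a Myc array of its genotype.

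The other Odc1 probe set, 10394770, read 1862, 2572 and 2215 in Myc arrays labelled Zfx ko, against 897, 1779 and 1469 in GFP arrays labelled Zfx ko. For Zfx wt cells the values were 1808, 2469.6 and 2105 with Myc and 1222, 1829.9 and 1262 with GFP. Here the groups of Zfx wt cells overlapped, since replicate 2 with GFP lay above replicate 1 with Myc. In cells labelled Zfx ko the 2 folds were 1.61 (1.16 to 2.23) for 10582295 and 1.65 (1.12 to 2.45) for 10394770, with adjusted p of 0.0865 and 0.134, neither called. With the block the adjusted p were 0.00401 and 0.00543, and both stayed called whichever array was left out. Without the block, leaving out replicate 1 of the GFP arrays labelled Zfx ko gave log2 differences of 0.45 and 0.44, against 0.69 and 0.73 with all arrays. In Zfx wt cells the folds were 1.57 (1.13 to 2.17) and 1.49 (1.01 to 2.21), with adjusted p of 0.129 and 0.292 without and 0.00665 and 0.017 with the block. With the block, 10582295 was called in all 12 fits that left out 1 array, and 10394770 in 9 of 12, lost without replicate 1 or 3 of the Myc Zfx wt arrays or replicate 3 of the GFP Zfx wt arrays (adjusted p up to 0.0814).

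Sat1, the acetylating enzyme of polyamine breakdown, was lower with Myc. Its intensity was 1909, 1975 and 1573 in Myc arrays labelled Zfx ko, against 2131, 2648 and 2389 in GFP arrays labelled Zfx ko, with no overlap. The values of Zfx wt cells were 1629, 1991 and 1375 with Myc and 1969.5, 2907 and 2234 with GFP. There the lowest GFP array lay just under the highest Myc array, though Myc was lower in 3 of 3 same-numbered pairs. The difference was 1.32-fold lower (1.01 to 1.72, adjusted p = 0.252) in cells labelled Zfx ko and 1.42-fold lower (1.09 to 1.85, adjusted p = 0.148) in Zfx wt cells, neither called. With the block the adjusted p were 0.0417 and 0.0192. That blocked call held in 3 of 12 fits that left out 1 array in cells labelled Zfx ko (adjusted p up to 0.156) and in 9 of 12 in Zfx wt cells (up to 0.0939). The groups with lower Sat1 were those with lower neutrophil marker sums. Of 9 such markers, 4 were called lower with Myc in cells labelled Zfx ko and 6 in Zfx wt cells (9 of 9 in each with the block). Median sums of mast cell and basophil, progenitor, and monocyte and macrophage markers were also lower with Myc in both genotypes. Erythroid sums were higher, and lymphoid sums overlapped. The part of these cell types in the Sat1 result was not tested.

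The regulators of ornithine decarboxylase showed no called difference. Oaz1, the main antizyme, has 2 probe sets that both also list its pseudogene Oaz1-ps. On 10364909 it read 2841, 3065 and 3209 in Myc arrays labelled Zfx ko, against 2597, 3318 and 3268 in GFP arrays labelled Zfx ko. Zfx wt arrays read 3120.3, 3007 and 3158 with Myc and 2721, 3338 and 3149 with GFP. The groups overlapped fully, and the folds were 1.00 (0.848 to 1.17) in cells labelled Zfx ko and 1.01 (0.860 to 1.19) in Zfx wt cells. Probe set 10448089 ranged from 2866 to 3654 over all arrays, with folds of 0.989 and 0.999. For Oaz1 the intervals leave out changes of 1.2-fold or more in either direction.

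Azin1, which shields ornithine decarboxylase from antizyme, read 1140.2, 1437 and 1047 in Myc arrays labelled Zfx ko, against 1001, 1466 and 1282 in GFP arrays labelled Zfx ko. Zfx wt cells had 1148, 1110.2 and 1059.6 with Myc and 1060.04, 1169 and 1021 with GFP. The groups overlapped in both genotypes, with folds of 0.970 (0.775 to 1.21, adjusted p = 0.965) in cells labelled Zfx ko and 1.02 (0.816 to 1.28, adjusted p = 0.977) in Zfx wt cells. Oaz2, the second antizyme, read 344, 272 and 313 in Myc arrays labelled Zfx ko, against 415, 286 and 392 in GFP arrays labelled Zfx ko. Zfx wt arrays were at 363, 354 and 374 with Myc and 372, 348 and 487 with GFP. Its folds were 0.857 (0.669 to 1.10, adjusted p = 0.604) and 0.913 (0.713 to 1.17, adjusted p = 0.873), so no change was resolved and one of about 1.4-fold downward is within the intervals.

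**Figure D2:**
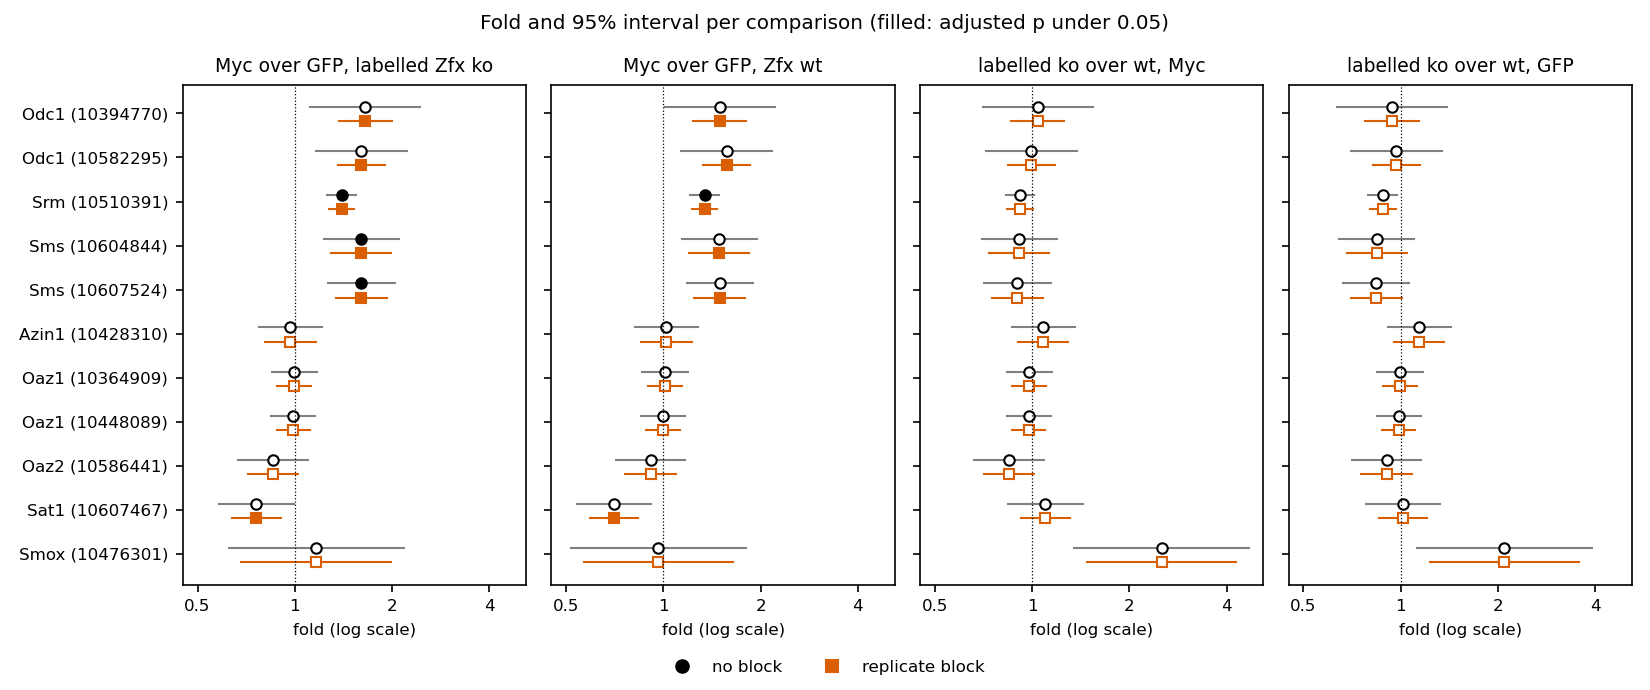
Fold (log axis) with its 95% interval for each member probe set in 4 comparisons; circles are the fit without and squares the fit with the replicate block, and filled symbols have adjusted p under 0.05. Srm is filled without the block in both Myc comparisons, Odc1 and Sat1 are filled only with it, and in the comparisons of genotypes Smox lies above 1 with wide intervals and no symbol is filled.

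Between the genotypes, 0 of 11 member probe sets were called under either virus, without or with the block. Over all probe sets, 2.38% were called with Myc (7.03% with the block) and 1.83% with GFP (5.91% with the block). Cells labelled Zfx ko and Zfx wt cells did not overlap for 3 of 11 member probe sets with Myc (Srm, Oaz2, Smox), where 15.7% of all probe sets did not, and for 2 of 11 with GFP (Srm, Smox), where 14.2% did not. Median log2 differences of the members were -0.028 with Myc and -0.044 with GFP, beside -0.0015 and -0.0050 over all probe sets. The comparisons of viruses and of genotypes share arrays, so their values are not independent.

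Smox, spermine oxidase, had the widest difference between genotypes of the members. With Myc its intensity was 441, 849.7 and 1764 in arrays labelled Zfx ko, against 278, 374 and 398 in Zfx wt arrays. With GFP it was 669, 746 and 841 in arrays labelled Zfx ko and 329.6, 459 and 305 in Zfx wt arrays. Every array labelled Zfx ko lay above every Zfx wt array of its virus, but the Myc arrays labelled Zfx ko spanned 4.00-fold. The fold was 2.52 (1.35 to 4.70, adjusted p = 0.159) with Myc and 2.09 (1.12 to 3.90, adjusted p = 0.336) with GFP, neither called. With the block the adjusted p were 0.052 and 0.119. Leaving out replicate 1 of the Myc arrays labelled Zfx ko brought the Myc comparison to a log2 difference of 1.82 and an adjusted p of 0.0198. Leaving out replicate 3 of that group, the array highest in erythroid markers, brought it to 0.82, against 1.33 with all arrays, and it was not called. Myc itself left Smox within its spread, with a fold of 1.16 (0.624 to 2.17, adjusted p = 0.922) in cells labelled Zfx ko and 0.965 (0.517 to 1.80, adjusted p = 0.989) in Zfx wt cells.

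Erythroid markers had the same order as Smox within every group except the GFP arrays labelled Zfx ko. Those used here were 6 genes (Klf1, Gata1, Epor, Ermap, Ank1, Slc4a1), and the globins Hba-a1 and Hbb-b1 were not measured alone. Their summed intensity was 2617, 4059 and 7110 in Myc arrays labelled Zfx ko, against 1261, 1786 and 1813 in Myc Zfx wt arrays. With GFP it was 1724, 1598 and 1512 in arrays labelled Zfx ko and 1015, 1242 and 947 in Zfx wt arrays. In the Myc arrays labelled Zfx ko and in both Zfx wt groups the sum and Smox had the same order, and in the GFP arrays labelled Zfx ko the opposite order. With Myc, 3 of the 6 were called higher in cells labelled Zfx ko than in Zfx wt cells (5 with the block), and with GFP 0 (1 with the block). Their part in the Smox result was not tested.

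**Figure D3:**
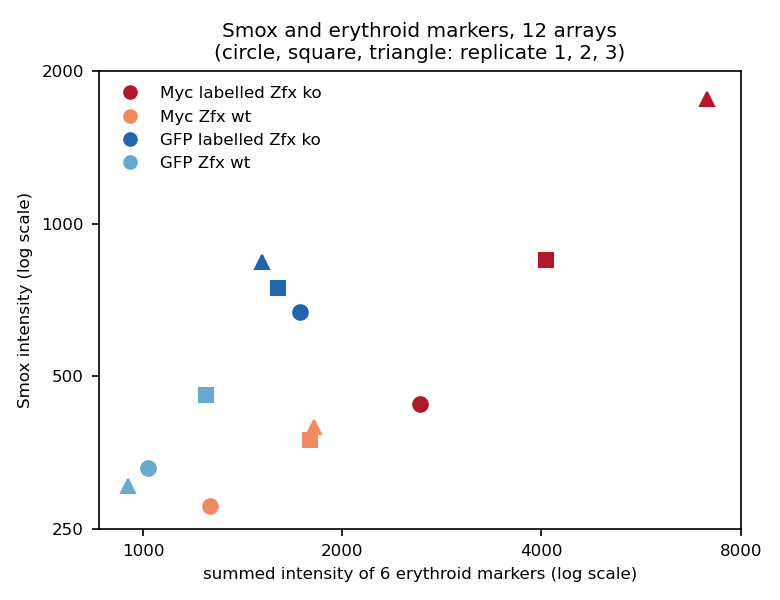
Smox intensity against the summed intensity of 6 erythroid markers on the 12 arrays (both axes log scale); colours are the 4 groups, and circles, squares and triangles are replicates 1, 2 and 3. Replicate 3 of the Myc arrays labelled Zfx ko is highest on both axes (1764 and 7110), and the GFP arrays labelled Zfx ko lie above the Zfx wt arrays on the Smox axis.

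Srm was lower in all same-numbered pairs of cells labelled Zfx ko against Zfx wt cells, 1.09-fold with Myc (0.985 to 1.21, adjusted p = 0.59) and 1.14-fold with GFP (1.03 to 1.26, adjusted p = 0.295), and neither was called. The arrays did not overlap under either virus, as the values above show. The remaining members differed between genotypes by at most 1.19-fold on average with GFP and 1.18-fold with Myc. For Odc1 the folds were 1.04 (0.703 to 1.54) and 0.994 (0.718 to 1.38) with Myc, and 0.940 (0.635 to 1.39) and 0.970 (0.701 to 1.34) with GFP. The interaction, which asks whether the Myc difference itself differed between genotypes, called 0 of 11 members and 0% of all probe sets, without or with the block, at limma adjusted p under 0.05. At an unadjusted p under 0.05, 555 of 35556 probe sets passed, or 1.56% (1352 with the block). Both counts are below the share of 0.05 that would pass if no probe set differed. Its ratio of folds was 1.04 (0.902 to 1.20) for Srm, 1.02 (0.647 to 1.62) and 1.11 (0.636 to 1.93) for Odc1, 1.08 (0.741 to 1.58) and 1.07 (0.768 to 1.50) for Sms, 1.08 (0.742 to 1.57) for Sat1 and 1.20 (0.499 to 2.91) for Smox, and the intervals stayed within 1.5-fold either way for Srm, Oaz1 and Azin1 and reached past it for the others.

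Genes around the pathway were followed in 5 lists of 36 genes, of which 32 were measured alone (Amd2, Ass1, Mat2a and Ahcy were not). With Myc, 9 of 32 were called higher and 0 lower in cells labelled Zfx ko (11 and 2 with the block), and 6 of 32 higher and 0 lower in Zfx wt cells (9 and 2 with the block), beside the shares of all probe sets given above. The median log2 difference was 0.12 in cells labelled Zfx ko and 0.091 in Zfx wt cells.

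The methionine cycle and methylthioadenosine salvage list had the most calls, 4 of 7 measured genes higher in each genotype. Methylthioadenosine is the by-product of both synthases, and the salvage enzymes return it to methionine. Mtap, which cleaves it, rose 1.69-fold in cells labelled Zfx ko (adjusted p = 0.00792) and 1.72-fold in Zfx wt cells (adjusted p = 0.00999). Adi1, a late step of the salvage, rose 1.67-fold (adjusted p = 0.00151) and 1.63-fold (adjusted p = 0.00315) in the same order of genotypes. Of the steps between them, Mri1 at 1.54-fold and 1.48-fold and Enoph1 at 1.28-fold and 1.25-fold were called in both as well. Apip, which acts between Mri1 and Enoph1, was not called, with folds of 1.01 (adjusted p = 0.992) and 0.885 (adjusted p = 0.495). Mat2b, the regulatory subunit of methionine adenosyltransferase, passed in cells labelled Zfx ko only with the block (1.32-fold, adjusted p = 0.111 without and 0.0162 with it).

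Of the arginine and ornithine list, 2 of 10 measured genes were called higher in each genotype. Slc7a1, a carrier that brings arginine into the cell, rose 1.39-fold in cells labelled Zfx ko (adjusted p = 0.00266) and 1.40-fold in Zfx wt cells (adjusted p = 0.00411). Aldh18a1, which makes the precursor of proline and ornithine from glutamate, rose 1.34-fold (adjusted p = 0.0212) and 1.40-fold (adjusted p = 0.0162). Arg2, which makes ornithine from arginine, went the other way but was called only with the block, 2.10-fold lower with Myc in cells labelled Zfx ko (adjusted p = 0.446 without and 0.0138 with the block) and 1.97-fold lower in Zfx wt cells (0.556 and 0.0253). With the block it was also called higher in cells labelled Zfx ko than in Zfx wt cells, 1.88-fold with Myc (adjusted p = 0.0478) and 2.01-fold with GFP (adjusted p = 0.0363). So was Asl, which releases arginine from argininosuccinate, 1.28-fold with Myc (adjusted p = 0.149 without and 0.0127 with the block) and 1.27-fold with GFP (0.186 and 0.0155).

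Spermidine also supplies the hypusine residue of the translation factor eIF5A. Of the 4 genes of that list, 2 were called higher with Myc in cells labelled Zfx ko and 0 in Zfx wt cells (3 in each with the block). Dohh, the hydroxylase of the second step, had folds of 1.50 (adjusted p = 0.0491) in cells labelled Zfx ko and 1.53 (adjusted p = 0.0503) in Zfx wt cells, values on either side of the threshold. Eif5a2, a paralog of Eif5a, had folds of 1.77 (adjusted p = 0.0402) and 1.40 (adjusted p = 0.276), and the interaction was not called for it (adjusted p = 1). Dhps, the enzyme of the first step, was called only with the block, at 1.29-fold in cells labelled Zfx ko and 1.24-fold in Zfx wt cells, and Eif5a only with the block in Zfx wt cells, at 1.18-fold.

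Of the 7 transport and oxidation genes, 1 was called with Myc, Slc18b1, a vesicular polyamine transporter. Its fold was 1.43 in cells labelled Zfx ko (adjusted p = 0.00599) and 1.03 in Zfx wt cells (adjusted p = 0.952). It was also the only list gene called between genotypes without the block, 1.58-fold higher in cells labelled Zfx ko than in Zfx wt cells with Myc (adjusted p = 0.00269), with 1.13-fold with GFP (adjusted p = 0.455). The interaction for it was 1.39-fold (1.17 to 1.66) and did not pass (adjusted p = 1). Atp13a2, a lysosomal polyamine exporter, was called lower with Myc only with the block (1.19-fold lower in cells labelled Zfx ko, adjusted p = 0.00623, and 1.16-fold lower in Zfx wt cells, adjusted p = 0.0169). With the block it was also called higher in cells labelled Zfx ko than in Zfx wt cells, 1.19-fold with Myc (adjusted p = 0.0114) and 1.23-fold with GFP (adjusted p = 0.00651). Its relative Atp13a3 was called 1.33-fold lower there with Myc in the blocked fit (adjusted p = 0.0495). Over the 5 lists the block thus gave 4 of 32 higher and 1 lower between genotypes with Myc, and 3 higher and 0 lower with GFP. Over all probe sets the block called 7.03% with Myc and 5.91% with GFP, both directions together. Of the paralogs, 0 of 4 were called in any comparison, among them Sat2 at 1.09-fold and 1.11-fold and Azin2 at 1.14-fold and 1.15-fold lower with Myc.

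**Figure D4:**
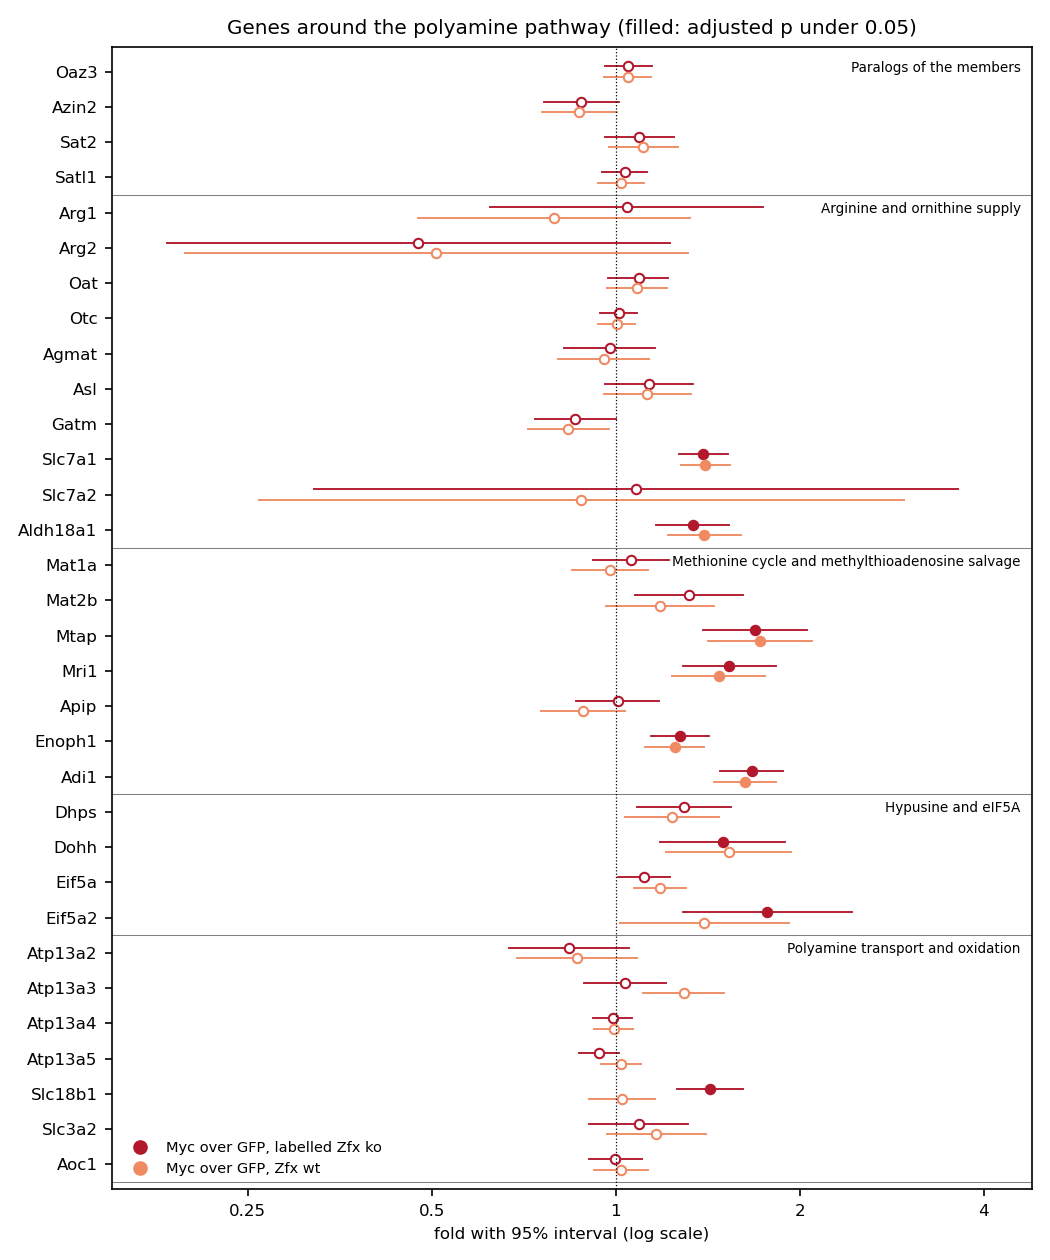
Fold of Myc over GFP virus with its 95% interval (log axis, fit without the block) for the 32 measured genes of the 5 lists; dark symbols are cells labelled Zfx ko, light symbols Zfx wt cells, and filled symbols have adjusted p under 0.05. Filled symbols gather in the methionine and methylthioadenosine list, with Mtap and Adi1 at about the same fold in both genotypes.

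The genes whose log2 values followed Odc1 (10582295) most closely over the 12 arrays, among 21782 other probe sets with 1 symbol, were Naa50 (Pearson r = 0.989), Fastkd2 (0.987), Timm23 (0.987 and 0.986 for its 2 probe sets) and Togaram1 (0.983). For Srm they were Nudc (0.993), Cfap298 (0.992), Noa1 (0.99), Pus7 (0.988) and Rcc1 (0.988). These values share the 12 arrays, the difference between viruses and the replicate numbers, and they were chosen as the highest, so they are a description.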

How the data were processed

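The deposited table held 1 intensity per probe set and array, which the authors made with RMA per the submitters' processing notes (linear scale, from the values: 17.68 to 24493; array medians 127 to 137.2). Labelling used 200 ng total RNA per the labels' protocols. The array software, scan batches and probe positions are named in none of the sources used here. From this table log2 was taken with no pseudocount or filter, and all 35556 probe sets (21789 with 1 symbol, 1621 with several, 12146 not listed) were fitted in R 4.3.3 with limma 3.58.1 as 4 group means over 12 arrays (8 residual degrees of freedom, 6 with the block). Calls had Benjamini-Hochberg adjusted p under 0.05; fold intervals are 95% and unadjusted. The number of arrays limits the precision.

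Arrays of different groups with 1 number shared their deviations from the group means (18 pairs, correlations from 0.2198 to 0.8085 with a median of 0.6294), so the numbers were read as pairing arrays. The labels do not say what a number stands for. The median for unequal numbers was -0.374. Its negative sign follows from the positive one once each group is centred on its mean, so it is no separate evidence. No 2 arrays were identical.

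Every member probe set is named; list genes were named when called, others as examples chosen after their values were seen. The members and lists were chosen with earlier results of these data known. Alternatives were the replicate block, 1 probe set per gene, a trended and robust prior, array weights, a second quantile normalization, median centring, bright probe sets alone, the compared groups alone, and leaving out each array; leaving out each array with the block was added after seeing the data.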

Additional observations from a re-analysis of the deposited data

How the results depend on the processing

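The Srm calls kept their direction and side of the threshold under every alternative except the compared groups alone in cells labelled Zfx ko (adjusted p = 0.0535). The 8 alternatives other than leaving out arrays moved the counts as follows, and the cause of each move was not tested. Member probe sets called with Myc in cells labelled Zfx ko were 3 as reported, 6 with the replicate block, 1 with 1 probe set per gene (which drops Sms and Oaz1, whose probe sets list several symbols), 2 with median centring, 4 with bright probe sets alone (which adds Odc1 10582295, adjusted p = 0.0485), 0 with the compared groups alone, and 1 to 3 without single arrays (1 without replicate 2 or 3 of the Myc arrays labelled Zfx ko). In Zfx wt cells they were 1 as reported, 6 with the replicate block, 4 with array weights, 2 with a second quantile normalization, 2 with bright probe sets alone, and 1 to 4 without single arrays (4 without replicate 1 of the GFP arrays labelled Zfx ko). With the block, leaving out arrays gave 5 to 6 in cells labelled Zfx ko and 2 to 6 in Zfx wt cells (3 without Myc Zfx wt replicate 1, 2 without replicate 3 of Myc Zfx wt or of GFP Zfx wt). Between genotypes leaving out arrays gave 0 to 1 with Myc (1, Smox, without replicate 1 of the Myc arrays labelled Zfx ko), and with the block 0 to 1 under each virus. The block changed no other call of a member.

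Over all probe sets, calls with Myc in cells labelled Zfx ko were 2577 as reported, 5679 with the block, 443 with the compared groups alone and 1001 to 2377 without single arrays. In Zfx wt cells they were 1765, 4420 with the block, 3236 with array weights, 767 with the compared groups alone and 405 to 2015 without single arrays. Between genotypes with Myc they were 848, 2501 with the block, 249 with the compared groups alone and 362 to 785 without single arrays. With GFP they were 652, 2103 with the block, 1231 with array weights, 209 with the compared groups alone and 276 to 645 without single arrays. The interaction gave 0, and 0 to 1 without single arrays; the compared groups alone were not run for it.

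Among 1064 values of single members under alternatives, 946 kept sign and side, 18 gained and 16 lost the call, and 84 turned sign, all of differences that were not called. With array weights the signs turned for Myc against GFP in Zfx wt cells Oaz1 (10448089) 0.0034, Smox (10476301) 0.068, and for labelled Zfx ko against wt with GFP Odc1 (10394770) 0.11, Odc1 (10582295) 0.13, Oaz1 (10364909) 0.060, Oaz1 (10448089) 0.030, and for the interaction Odc1 (10394770) -0.083, Odc1 (10582295) -0.17, Srm (10510391) -0.021, Sms (10604844) -0.12, Sms (10607524) -0.080, Oaz2 (10586441) 0.0022. With a second quantile normalization the signs turned for Myc against GFP in Zfx wt cells Azin1 (10428310) -5.8e-05, Oaz1 (10364909) -0.0041, and for labelled Zfx ko against wt with Myc Odc1 (10582295) 0.012, and for labelled Zfx ko against wt with GFP Oaz1 (10364909) 0.013. With median centring the signs turned for Myc against GFP in cells labelled Zfx ko Oaz1 (10364909) 0.024, Oaz1 (10448089) 0.012, and for Myc against GFP in Zfx wt cells Oaz1 (10448089) 0.013. Log2 differences whose sign turned without a single array are given as ranges. For Myc against GFP in cells labelled Zfx ko these were Azin1 (10428310) -0.20 to 0.080, Oaz1 (10364909) -0.12 to 0.059, Oaz1 (10448089) -0.12 to 0.049, Smox (10476301) -0.29 to 0.71. For Myc against GFP in Zfx wt cells these were Azin1 (10428310) -0.010 to 0.088, Oaz1 (10364909) -0.067 to 0.080, Oaz1 (10448089) -0.090 to 0.058, Oaz2 (10586441) -0.23 to 0.014, Smox (10476301) -0.17 to 0.13. For labelled Zfx ko against wt with Myc these were Odc1 (10394770) -0.055 to 0.18, Odc1 (10582295) -0.11 to 0.091, Azin1 (10428310) -0.017 to 0.21, Oaz1 (10364909) -0.069 to 0.019, Oaz1 (10448089) -0.074 to 0.0088. For labelled Zfx ko against wt with GFP these were Odc1 (10394770) -0.30 to 0.19, Odc1 (10582295) -0.20 to 0.19, Oaz1 (10364909) -0.092 to 0.11, Oaz1 (10448089) -0.11 to 0.084, Oaz2 (10586441) -0.25 to 0.019, Sat1 (10607467) -0.099 to 0.18. For the interaction these were Odc1 (10394770) -0.14 to 0.36, Odc1 (10582295) -0.20 to 0.19, Srm (10510391) -0.0015 to 0.11, Sms (10604844) -0.094 to 0.24, Sms (10607524) -0.088 to 0.21, Azin1 (10428310) -0.23 to 0.048, Oaz1 (10364909) -0.13 to 0.063, Oaz1 (10448089) -0.12 to 0.074, Oaz2 (10586441) -0.26 to 0.011, Sat1 (10607467) -0.045 to 0.25, Smox (10476301) -0.24 to 0.76.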
